A study of Mus musculus with 26 samples.

Results

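The genes described are chromatin remodeller and histone demethylase genes of the mouse, taken by symbol. The symbols were those starting with Smarca to Smarce, Kdm1 to Kdm8, Arid1 to Arid5 or Ino80, together with Chd1 to Chd9. They bring in 7 ARID genes that were not placed in a remodeller or demethylase family. Remodellers and demethylases with other symbols are left out. In the RefSeq gene table of GRCm38.p6 the rule found 55 genes among 21887 protein-coding genes on chromosomes 1 to 19, X and Y. The rule uses symbols and no measured value. Open chromatin at these genes was read from 26 ATAC-seq peak lists of mouse pluripotent cells, 1 list for each library. ATAC-seq uses the Tn5 transposase to cut accessible DNA, and each library was made from 50000 cells.

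The first set held 18 libraries in 6 groups of 3. ES were embryonic stem cells grown in 2iL at passage 16. FS1 (passage 21) and FS2 (passage 29) were the formative stem cells, both grown in A3XR. EpiSC_AF (passage 22) were epiblast stem cells grown in AF, and EpiSC_AFX1 (passage 14) and EpiSC_AFX2 (passage 16) were epiblast stem cells grown in AFX. The Rd2 set, labelled wild type, held 8 libraries. Rd2_ES (2 libraries) were Rd2GFP embryonic stem cells in 2iL at passage 33. Rd2_EpiLC (4 libraries) were epiblast-like cells made from ES cells over 2 days in AF with KSR, of which the fraction low in GFP was taken by sorting. Rd2_AFX (2 libraries) were epiblast stem cells in AFX at passage 16. FS below means FS1 and FS2 together (6 libraries), and EpiSC_AFX means both AFX groups (6 libraries). Whether replicates came from separate cultures is not stated in the labels, so each p measures the spread between these libraries, which may be technical. Library labels were permuted without regard to the groups pooled in FS and in EpiSC_AFX. Each p therefore ignores differences between FS1 and FS2, or between EpiSC_AFX1 and EpiSC_AFX2. ES libraries all came from the same group. Medium differed between ES, FS and EpiSC_AFX, and passage differed between most groups. The part of group, medium or passage in a difference was not tested.

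Chromatin remodellers are ATPases, with their subunits, that slide, evict or exchange nucleosomes. The BAF complexes carry Smarca4 or Smarca2 as motor, ISWI complexes carry Smarca5 or Smarca1, and the CHD and INO80 families have motors of their own. Histone demethylases of the Kdm families remove methyl groups from lysines of histone H3, among them the H3K4, H3K9, H3K27 and H3K36 marks. In pluripotent cells these enzymes are known for keeping lineage genes poised and for the switch of enhancers when cells leave the naive state.

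Sequences around RefSeq transcription starts were held for 40 of the 55 genes, as 53 windows of 300 bases on GRCm38.p6 running from 250 bases before a start to 50 after it. Those below were chosen to show starts with a peak in every first-set list as deposited, starts with a peak in only some lists, and starts without a peak, rich in CpG or not. Each is written 5′ to 3′ on the strand of the gene, and capitals mark CpG dinucleotides.
Chd6, chr2:161109037-161109336, minus strand: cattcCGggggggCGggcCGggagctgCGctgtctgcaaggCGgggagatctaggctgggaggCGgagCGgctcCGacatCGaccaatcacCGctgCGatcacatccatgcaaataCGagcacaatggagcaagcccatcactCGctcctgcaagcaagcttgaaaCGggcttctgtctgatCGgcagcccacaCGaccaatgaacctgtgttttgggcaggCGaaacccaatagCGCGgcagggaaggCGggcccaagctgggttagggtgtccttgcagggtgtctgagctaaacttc
Smarca5, chr8:80739410-80739709, minus strand: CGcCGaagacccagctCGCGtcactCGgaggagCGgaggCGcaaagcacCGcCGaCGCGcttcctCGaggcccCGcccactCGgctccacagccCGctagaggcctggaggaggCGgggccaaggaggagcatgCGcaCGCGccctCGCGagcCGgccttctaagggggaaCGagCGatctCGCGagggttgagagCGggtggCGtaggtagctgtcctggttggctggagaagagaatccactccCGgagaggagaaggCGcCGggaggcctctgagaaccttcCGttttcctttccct
Kdm3a, outer start, chr6:71632868-71633167, minus strand: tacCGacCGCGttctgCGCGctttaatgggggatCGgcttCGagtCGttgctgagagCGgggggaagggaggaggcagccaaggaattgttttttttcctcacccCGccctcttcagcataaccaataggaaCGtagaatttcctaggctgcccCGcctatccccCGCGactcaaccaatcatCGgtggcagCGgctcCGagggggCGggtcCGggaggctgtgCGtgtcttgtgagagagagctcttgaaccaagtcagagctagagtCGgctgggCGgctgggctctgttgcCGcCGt
Kdm3a, inner start, chr6:71609090-71609389, minus strand: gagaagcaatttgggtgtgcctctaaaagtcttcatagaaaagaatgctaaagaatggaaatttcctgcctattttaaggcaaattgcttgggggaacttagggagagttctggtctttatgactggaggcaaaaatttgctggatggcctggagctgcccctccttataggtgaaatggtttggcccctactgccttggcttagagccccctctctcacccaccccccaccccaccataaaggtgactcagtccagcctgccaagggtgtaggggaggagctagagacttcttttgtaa
Kdm1a, chr4:136602674-136602973, minus strand: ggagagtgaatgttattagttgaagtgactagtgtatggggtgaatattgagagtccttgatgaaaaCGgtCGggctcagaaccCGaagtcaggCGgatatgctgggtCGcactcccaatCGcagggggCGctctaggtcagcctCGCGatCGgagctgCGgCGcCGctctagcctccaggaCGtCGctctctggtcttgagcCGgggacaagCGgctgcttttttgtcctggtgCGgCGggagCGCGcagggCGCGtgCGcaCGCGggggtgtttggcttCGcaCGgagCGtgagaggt
Kdm4c, outer start, chr4:74242247-74242546, plus strand: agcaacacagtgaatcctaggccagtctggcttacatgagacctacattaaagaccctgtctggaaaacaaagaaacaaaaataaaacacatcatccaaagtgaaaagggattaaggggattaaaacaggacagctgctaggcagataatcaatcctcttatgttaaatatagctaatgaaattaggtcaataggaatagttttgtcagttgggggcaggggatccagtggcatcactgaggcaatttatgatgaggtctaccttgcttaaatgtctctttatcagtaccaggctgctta
Kdm4c, inner start, chr4:74251629-74251928, plus strand: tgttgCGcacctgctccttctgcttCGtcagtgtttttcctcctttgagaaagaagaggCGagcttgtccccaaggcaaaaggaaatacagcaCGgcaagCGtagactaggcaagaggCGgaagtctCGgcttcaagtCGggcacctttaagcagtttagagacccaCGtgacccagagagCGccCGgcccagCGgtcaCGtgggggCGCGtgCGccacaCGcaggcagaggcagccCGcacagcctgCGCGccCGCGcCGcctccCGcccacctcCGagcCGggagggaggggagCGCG
Kdm6a, chrX:18162325-18162624, plus strand: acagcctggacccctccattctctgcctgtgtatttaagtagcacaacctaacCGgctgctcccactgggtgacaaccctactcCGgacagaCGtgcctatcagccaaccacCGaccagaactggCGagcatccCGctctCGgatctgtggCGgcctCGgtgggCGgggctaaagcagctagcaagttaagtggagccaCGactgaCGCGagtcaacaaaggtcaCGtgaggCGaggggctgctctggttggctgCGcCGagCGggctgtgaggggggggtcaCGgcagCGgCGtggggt
Chd5, chr4:152338401-152338700, plus strand: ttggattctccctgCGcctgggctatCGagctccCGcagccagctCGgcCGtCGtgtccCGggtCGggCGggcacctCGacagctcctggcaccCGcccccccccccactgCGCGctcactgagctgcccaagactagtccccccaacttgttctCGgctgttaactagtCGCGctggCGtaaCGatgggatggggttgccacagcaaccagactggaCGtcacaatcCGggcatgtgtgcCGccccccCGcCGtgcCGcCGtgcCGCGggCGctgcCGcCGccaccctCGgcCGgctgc
Smarca1, chrX:47892564-47892863, minus strand: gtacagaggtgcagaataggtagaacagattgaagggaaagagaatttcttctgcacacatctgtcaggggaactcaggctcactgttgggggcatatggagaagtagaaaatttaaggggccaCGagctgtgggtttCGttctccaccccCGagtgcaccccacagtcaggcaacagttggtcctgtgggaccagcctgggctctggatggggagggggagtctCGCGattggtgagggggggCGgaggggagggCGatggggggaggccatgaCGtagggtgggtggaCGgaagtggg
In the Kdm4c pair, the outer start held 0 CpG and had a peak in none of the 18 first-set lists. The inner start held 28 CpG and had one in 17. At Kdm3a the outer start held 24 CpG and had a peak in 18 of 18 lists. Its inner start, with 0 CpG, had a peak in 2 of the 3 ES lists and in no other list of either set. Another listed start of Kdm3a, not printed, held 40 CpG and had a peak in 18 of 18 lists. The Chd5 window, with 32 CpG, had a peak in no list.

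The lists differed in length, reaching 31263 peaks in the first set and running from 471 to 26045 in the Rd2 set. The 3 shortest lists of the first set were those of ES. The read depth of the libraries is unknown, since the lists hold no read counts. Values are therefore given for each list as deposited and at equal length, which means that each first-set list was cut to the size of the shortest, keeping the peaks of highest −log10 p. A gene-end peak overlapped the 1 kb on either side of an end of the gene span, an inner peak overlapped the span elsewhere, and a flank peak lay within 5 kb outside it. The gene table gives neither strand nor exons, so both ends were treated alike and inner peaks were not assigned to exons or introns. The rank of a gene in a library is the percentile of its strongest gene-end peak within the equal-length list, from 0 for no peak to 100 for the strongest. In bulk libraries, fewer cells with an open site and less opening in each cell cannot be told apart.

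Markers of the labelled cell types were read in the same way at equal length. Of 10 naive marker genes, 4 to 6 had a gene-end peak in an ES library, 2 to 4 in an FS library, 3 to 4 in an EpiSC_AF library and 4 to 5 in an EpiSC_AFX library. Of 7 formative markers, 0 to 1 had one in ES, 0 to 3 in FS, 3 to 4 in EpiSC_AF and 3 to 4 in EpiSC_AFX. Of 6 primed markers the range was 0 to 1 in ES and 0 to 2 in each of the other types, and of 8 feeder fibroblast markers it was 0 in ES and EpiSC_AF and 0 to 1 in FS and EpiSC_AFX. Naive markers ranged highest in ES, overlapping the other types, and formative markers did not overlap between ES and the epiblast stem cells, with FS spanning both. The share of all protein-coding genes with a gene-end peak did not overlap there either. It was 20.6% to 21.3% in ES, 26% to 26.1% in EpiSC_AF and 24.9% to 26.1% in EpiSC_AFX. Of Pou5f1, Sox2 and Sall4, the pluripotency genes shared by all these cells, 0 to 1 had a gene-end peak in ES, 0 to 2 in FS, 2 to 3 in EpiSC_AF and 1 to 3 in EpiSC_AFX.

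Remodeller and demethylase genes had gene-end peaks more often than the average gene in each library. At equal length, 15 to 22 of the 55 genes had one, or 27.3% to 40% of them, against 20.6% to 26.1% of all protein-coding genes, and the share of the 55 was the larger in 18 of 18 libraries. In the lists as deposited the share ran from 29.1% to 80% in the first set, against 21.3% to 55.1% of all genes, and it was the larger in 26 of 26 libraries of both sets. By group at equal length, the number of the 55 genes with a gene-end peak was 17.7 ± 1.53 in ES (SD, n = 3), 19 ± 2.83 in FS (n = 6), 21 ± 1.73 in EpiSC_AF (n = 3) and 19.2 ± 1.72 in EpiSC_AFX (n = 6). The ranges of the libraries overlapped between all 4 types. As deposited the number was 21.3 ± 5.03 in ES against 35.3 ± 7.79 in FS and 41.5 ± 2.51 in EpiSC_AFX. The ES lists were the shortest of the first set, and the part of list length in this difference was not tested.

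**Figure D1:**
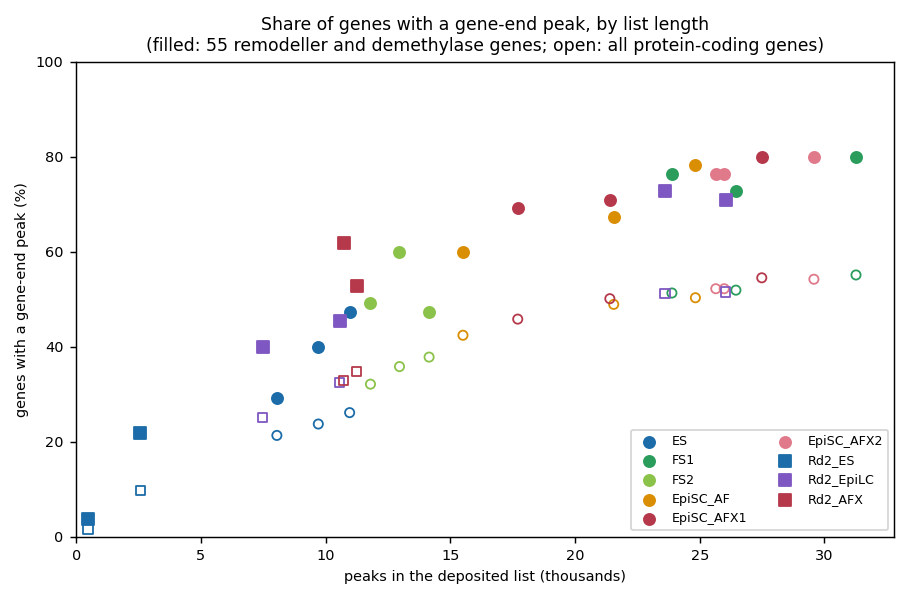
Percent of genes with a gene-end peak (vertical axis) against the number of peaks in the deposited list, in units of 1000 (horizontal axis), 1 pair of points for each of 26 libraries, coloured by group, with circles for the first set and squares for the Rd2 set. Filled points are the 55 remodeller and demethylase genes and open points all protein-coding genes: both rise with list length, and each filled point lies above its open partner.

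Across the first set, 9 of the 55 genes (16.4%) had a gene-end peak in all 18 libraries at equal length, against 5.87% of all genes. As deposited there were 11 (20%), against 10.6%. With peaks kept at a −log10 q of at least 5 in place of equal length there were 0, and the share of all genes was not taken there. At least 1 library had one for 34 genes (61.8%, against 48.9% of all genes) at equal length and for 49 genes (89.1%, against 65.1%) as deposited. Where a gene-end peak was present, the median width of the strongest was 376 to 623 bp over the libraries for these genes and 274 to 440 bp for all genes with one, and it was the larger for these genes in 18 of 18 libraries. These shares describe the list of genes, and no test was made of them.

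**Figure D2:**
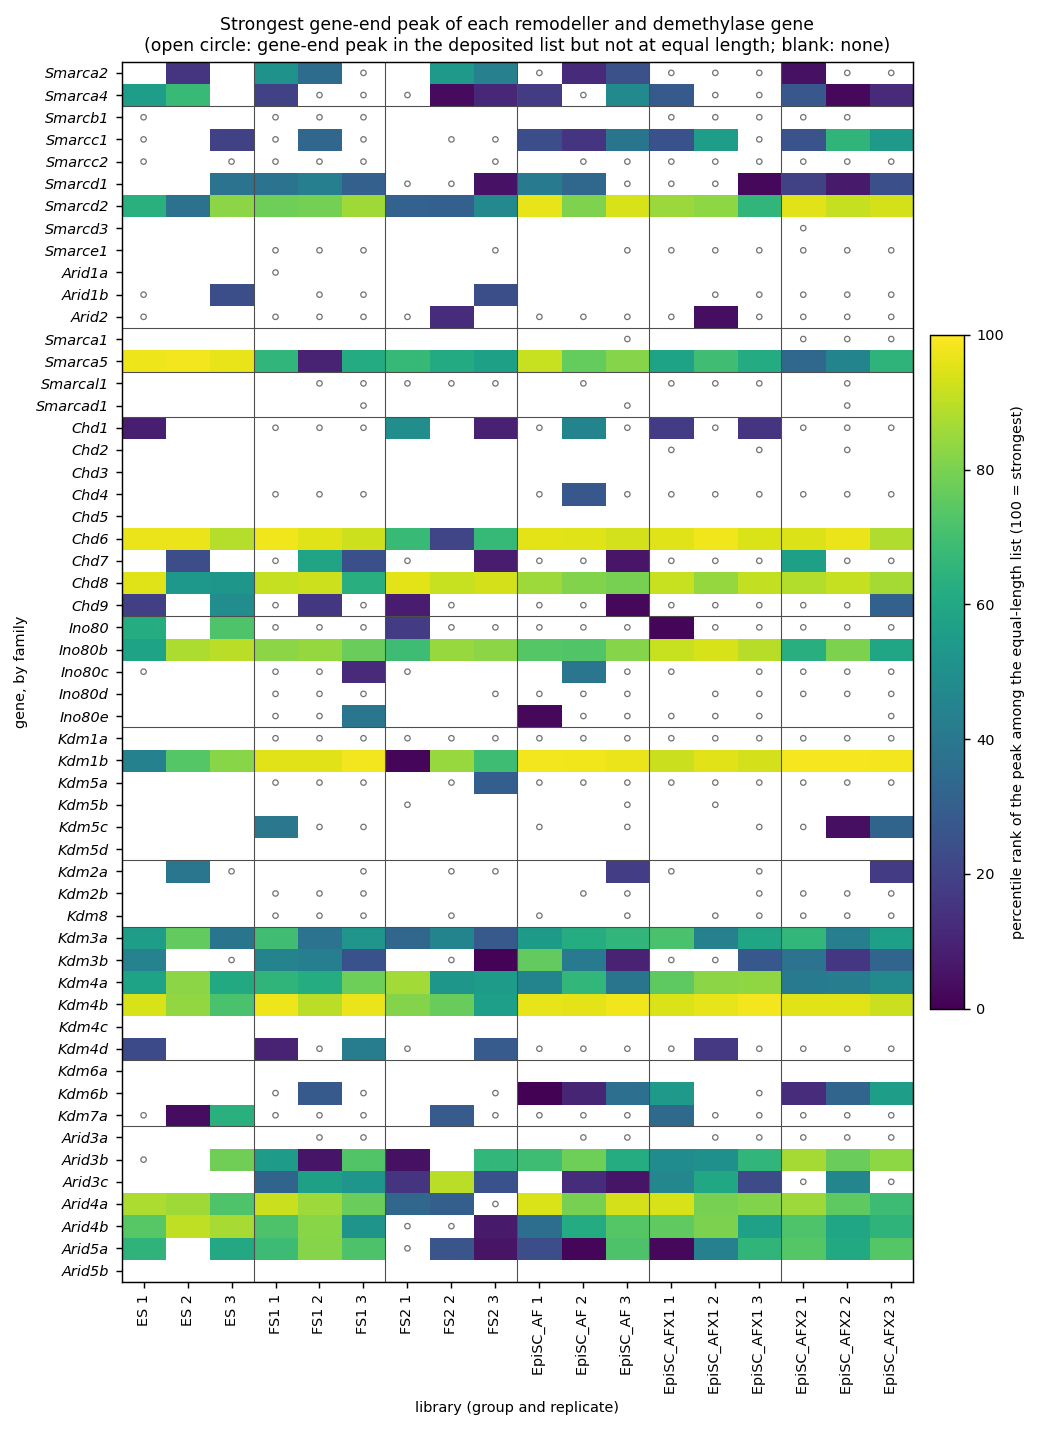
Percentile rank of the strongest gene-end peak (colour, 0 to 100) of the 55 genes (rows, by family, lines between families) in the 18 first-set libraries (columns) at equal list length. Open circles mark a peak present only in the deposited list and blank cells no peak; 9 rows are coloured in every column, and 6 rows are blank throughout.

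The genes with a gene-end peak in every first-set library at equal length came from several families. They were the remodellers Chd6, Chd8 and Smarca5, the BAF subunit gene Smarcd2, the INO80 subunit gene Ino80b, and the demethylase genes Kdm1b (H3K4), Kdm3a (H3K9), Kdm4a and Kdm4b (H3K9 and H3K36). Arid4a and Arid4b, whose products bind the retinoblastoma protein, joined them in the lists as deposited. The highest mean ranks over the 6 groups were 89.4 for Kdm4b, 87.5 for Chd6, 84.1 for Kdm1b, 83.8 for Chd8 and 79.0 for Ino80b. Over both sets, each list read on its own, Chd6, Kdm3a, Kdm4a, Kdm4b, Kdm1b, Smarcd2, Arid4a and Arid4b had a gene-end peak in the same 25 of the 26 lists, missing only from the Rd2_ES list of 471 peaks. Smarca5 was the 1 gene of the 55 with a gene-end peak in all 26 lists.

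Some of these peaks lay away from the listed start. The gene-end peak of Ino80b, chr6:83121248-83122143, was in all 18 lists but lay at the end of the span next to Wbp1, and its listed start, 2976 bp away, had a peak over its window in none. That of Smarcd2, chr11:106272354-106273264, lay within 1 kb of an end of Tcam1 and 4722 bp from the nearest listed start of Smarcd2. The listed starts of both genes are on the minus strand. The Smarcd2 peak covered the 5′ end of its span, and the Ino80b peak the 3′ end. The peaks of Kdm1b (chr13:47043027-47044072) and Arid4b (chr13:14063011-14064260) covered a listed start and also an end of a neighbour, Tpmt and Ggps1. Of the 49 genes with a gene-end region, 16 had one within 1 kb of another gene's end, so a peak there cannot be given to 1 gene of the pair.

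Among the BAF ATPases, neither gene was open everywhere. Smarca4, the BAF motor of embryonic stem cells, had ranks of 55.7, 67.7 and 0 in ES. Its lowest, median and highest ranks were 0, 1.47 and 19.4 in FS and 0, 7.20 and 28.4 in EpiSC_AFX, so that ES libraries held both the highest values and a 0. As deposited, it had a gene-end peak in 17 of 18 lists (chr9:21615777-21616648, over the listed start). Smarca2, the alternative motor, had ranks of 0, 15.5 and 0 in ES. In FS they were 0, 39.4 and 54.2 (lowest, median, highest), and in EpiSC_AFX 5 of 6 libraries were at 0 and the highest was 4.38. As deposited Smarca2 had a gene-end peak in 15 lists. For neither gene did a per-gene test give an unadjusted p under 0.05.

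Of the 10 BAF subunit genes, 1 was open in all 18 libraries at equal length (Smarcd2), 4 in some and 5 in none. The 5 without a gene-end peak were Smarcb1, Smarcc2, Smarcd3, Smarce1 and Arid1a. As deposited all 10 had one in some list: Smarcb1, the core subunit, in 9 lists, Smarcc2 in 14, Smarce1 in 11, Smarcd3 in 1 and Arid1a in 1. Arid1a had other sites. Its flank region chr4:133675645-133676044 was in 14 lists as deposited, none of them ES, and in 6 at equal length. The inner region chr4:133729675-133730404 was in 7 lists, 2 of them ES. The inner region over a listed start with 36 CpG, chr4:133753101-133754627, was present in 13 lists as deposited and 0 at equal length, and in none of the 3 ES lists.

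Smarcd2 ranks were 63.3, 37.6 and 82.7 in ES, and 30.6, 62.5 and 85.7 (lowest, median, highest) in FS. In EpiSC_AFX they were 65.7, 88.0 and 95.5. EpiSC_AFX lay higher, and its range overlapped both others. FS fell apart by group: the 3 FS1 libraries were at 77.9 to 85.7 and the 3 FS2 libraries at 30.6 to 47.1. The difference of ES minus EpiSC_AFX was -24.5 (exact permutation test, unadjusted p = 0.0238, adjusted p = 0.206), and that of FS minus EpiSC_AFX was -27.0 (exact permutation test, unadjusted p = 0.0498, adjusted p = 0.706). Smarcc1, a scaffold subunit, had a rank above 0 in 1 of 6 FS libraries and in 5 of 6 EpiSC_AFX libraries (highest 65.5). FS minus EpiSC_AFX was -32.2 (exact permutation test, unadjusted p = 0.0411, adjusted p = 0.706), and the ranges overlapped.

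The ISWI pair was split. Smarca5, the ISWI motor that spaces nucleosomes, had ranks of 97.6, 98.3 and 96.7 in ES. They were 91.7, 76.5 and 82.0 in EpiSC_AF, 9.46, 61.4 and 67.0 (lowest, median, highest) in FS and 33.4, 59.8 and 69.4 in EpiSC_AFX. The 3 ES libraries were thus the 3 highest of the 18, and ES overlapped neither FS nor EpiSC_AFX. The mean was 97.5 ± 0.771 in ES (SD, n = 3), 53.7 ± 22 in FS (n = 6) and 55.5 ± 13.5 in EpiSC_AFX (n = 6). ES minus FS was 43.8 (exact permutation test, unadjusted p = 0.0119, adjusted p = 0.264) and ES minus EpiSC_AFX 42.1 (exact permutation test, unadjusted p = 0.0119, adjusted p = 0.141). In the lists as deposited the differences were 18.4 and 12.7. The peak, chr8:80738560-80739871, covered the listed start printed above with its 32 CpG.
Smarca1, the other ISWI motor, had no gene-end peak in any library at equal length. As deposited it had a gene-end peak in 3 of 3 EpiSC_AFX2 lists and 1 of 3 EpiSC_AF lists, and in none of ES, FS1, FS2 and EpiSC_AFX1. In 3 of these 4 lists the peak overlapped the start window printed above, with its 9 CpG. An inner region of Smarca1, chrX:47866697-47867708, had a peak in 2 of 3 ES lists and 1 EpiSC_AF list.

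Smarcal1 and Smarcad1, further SNF2 genes, stand outside these complexes. Smarcal1, which remodels stalled replication forks, had no gene-end peak at equal length and 10 as deposited, at the end it shares with Marchf4. Its listed start lay inside the span, where the region chr1:72582968-72583615 was in 16 lists as deposited and 14 at equal length. Smarcad1 had a gene-end peak in 3 lists as deposited and in none at equal length.

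**Figure D3:**
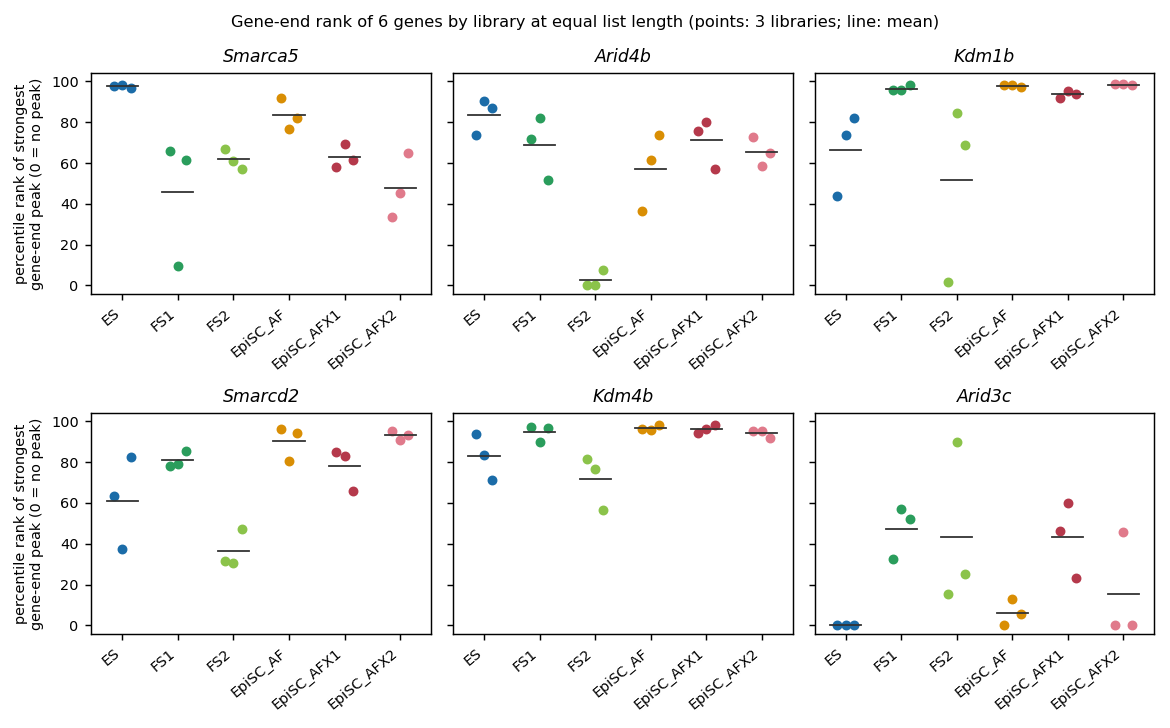
Percentile rank of the strongest gene-end peak (vertical axis, 0 for no peak) at equal list length for Smarca5, Arid4b, Kdm1b, Smarcd2, Kdm4b and Arid3c, by group (horizontal axis); points are the 3 libraries of a group and lines their mean. Smarca5 was highest in ES (96.7 to 98.3), Kdm1b spread from 1.60 to 84.6 in FS2, Arid4b at 0 in 2 of 3 FS2 libraries, and Arid3c at 0 in all 3 ES libraries.

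Of the 9 CHD genes, 2 were open in all 18 libraries (Chd6 and Chd8), 4 in some (Chd1, Chd4, Chd7 and Chd9) and 3 in none (Chd2, Chd3 and Chd5) at equal length. Chd6 had ranks of 97.2, 97.0 and 89.0 in ES and 88.0, 94.9 and 97.7 (lowest, median, highest) in EpiSC_AFX. In FS they were 20.9, 80.1 and 98.0, the 3 lowest being the 3 FS2 libraries. Chd1, which reads the H3K4 methyl mark, had a gene-end peak in 6 of 18 libraries at equal length and 15 as deposited. Chd4, the motor of the NuRD complex, had one in 1 library at equal length (EpiSC_AF) and in 12 as deposited: all of FS1, EpiSC_AF, EpiSC_AFX1 and EpiSC_AFX2, and none of ES and FS2. Its percentile ranks within those deposited lists were 5.81 to 72.8. The region at its listed start was chr6:125095843-125097164.

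Chd5, a CHD gene known for its neural expression, had no gene-end peak in any of the 26 lists but 7 inner regions. The region 2.47 kb from the lower end of the span, chr4:152340973-152341262, had a peak in 12 lists as deposited (0 ES, 3 FS1, 1 FS2, 3 EpiSC_AF, 2 EpiSC_AFX1, 3 EpiSC_AFX2) and in 9 at equal length. A pair of regions at 21.2 and 22.4 kb had one in 11 and 12 lists as deposited, in no ES or FS2 list. Over the span as deposited, the number of inner peaks summed to 0 in the 3 ES lists, 11 in FS1, 1 in FS2, 10 in EpiSC_AF, 9 in EpiSC_AFX1 and 15 in EpiSC_AFX2. The 0 in ES held as deposited and at equal length. At equal length the mean number of peaks in and around the gene was 0 ± 0 in ES (n = 3) and 1.83 ± 1.33 in EpiSC_AFX (n = 6), a difference of -1.83 (exact permutation test, unadjusted p = 0.0595, adjusted p = 0.477). Chd3, also a NuRD motor gene, had no gene-end peak in any list and 1 inner region, chr11:69366124-69366702, in 6 lists, none of them ES. Its flank region, chr11:69340399-69341227, was in 15 lists as deposited, 2 of them ES. At equal length that region was in 2 ES libraries and 1 FS2 library.

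Of the 5 INO80 genes, Ino80b had a gene-end peak throughout, at the end next to Wbp1, while its listed start had a peak in no list. At equal length Ino80, Ino80c and Ino80e had a gene-end peak in some libraries and Ino80d in none. Ino80, the motor, had a gene-end peak in 4 of 18 libraries at equal length (2 ES, 1 FS2 and 1 EpiSC_AFX1) and in 17 as deposited, at its listed start (chr2:119476930-119478450). Ino80d had one in 12 lists as deposited and in no ES list. The gene-end region of Ino80e, chr7:126861757-126862509, is shared with Hirip3.

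The H3K4 demethylase genes ranged from a gene-end peak in every first-set library to no peak in any list. Kdm1b, an amine oxidase, had ranks of 43.8, 73.6 and 82.3 in ES. They were 98.1, 98.0 and 97.2 in EpiSC_AF, 91.8, 96.8 and 98.5 (lowest, median, highest) in EpiSC_AFX and 1.60, 90.1 and 98.1 in FS. ES did not overlap EpiSC_AFX, and FS held both ends of the scale: FS1 libraries were at 95.6 to 98.1 and FS2 libraries at 1.60, 84.6 and 68.9. ES minus EpiSC_AFX was -29.4 (exact permutation test, unadjusted p = 0.0119, adjusted p = 0.141).
Kdm1a, the related enzyme that works with CoREST and NuRD, had no gene-end peak in any of the 18 libraries at equal length. As deposited it had one in 15 of 18 lists (chr4:136602015-136602945), that is, in each FS, EpiSC_AF and EpiSC_AFX list and in no ES list. In 14 of the 15 the peak overlapped the start window printed above, with its 29 CpG. It was the 1 gene of the 55 with that pattern (1.82%, against 2.48% of all genes). In the 15 lists its peak ranked at percentiles 2.07 to 63.7. The 3 ES lists were also the 3 shortest, and the part of list length in this difference was not tested. In the Rd2 set it was in 1 of 4 Rd2_EpiLC lists and in no Rd2_ES or Rd2_AFX list.

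Kdm5a, which removes the trimethyl mark of H3K4, had a gene-end peak in 1 library at equal length and in 14 as deposited, none of them ES, at a region shared with Ccdc77. In the Rd2 set the same gene had one in 1 of 2 Rd2_ES lists, 4 of 4 Rd2_EpiLC lists and 2 of 2 Rd2_AFX lists. Kdm5b, its relative, had none at equal length and 3 as deposited. A flank region 2893 bp from its listed start, chr1:134556299-134557285, was in all 18 lists as deposited and in 17 at equal length. Kdm5c, on the X chromosome, had a gene-end peak in 3 libraries at equal length and 9 as deposited. Kdm5d, on the Y chromosome (chrY:897566-943813), had no peak of any class in any list. Peaks on that chromosome were in 23 of the 26 lists and made up 1009 of 451563 peaks over all lists. The sex of the lines was not used here, so a closed gene and an absent one cannot be told apart.

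The H3K36 demethylase genes Kdm2a, Kdm2b and Kdm8 differed in where their peaks lay. Kdm2a had a gene-end peak in 3 libraries at equal length and 9 as deposited. Its inner region chr19:4333820-4334246 was in 16 lists as deposited and 15 at equal length. The region reaching its gene end, chr19:4396695-4398413, had a peak in all 18 lists as deposited and 8 at equal length. In some of these lists the peak lay just beyond the 1 kb window and was counted as inner. Kdm2b, which binds CpG-rich DNA through a zinc finger, had no gene-end peak at equal length and 9 as deposited. Its inner region at chr5:122899967-122900696 lay over a listed start with 49 CpG and was in 17 lists as deposited (3 ES, 3 FS1, 2 FS2, 3 EpiSC_AF, 3 EpiSC_AFX1 and 3 EpiSC_AFX2) and 16 at equal length. The listed start at the end of the span, with 28 CpG, had a peak in 9 lists, none of them ES. Another inner region, chr5:122961985-122962242, was in 13 lists and again in no ES list. Kdm8 had a gene-end peak in no library at equal length and in 11 as deposited, and it had no inner peak in the first set.

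Among the H3K9 and H3K36 demethylase genes, Kdm3a, Kdm4a and Kdm4b were open throughout. Kdm4b had ranks of 93.8, 83.6 and 71.4 in ES, 56.6, 85.6 and 97.4 (lowest, median, highest) in FS and 91.8, 95.3 and 98.2 in EpiSC_AFX. ES minus EpiSC_AFX was -12.3 (exact permutation test, unadjusted p = 0.0238, adjusted p = 0.206), with 1 of 3 ES libraries inside the EpiSC_AFX range. Kdm4c had no gene-end peak in any of the 26 lists. The open site lay over its inner start, chr4:74251418-74252603, 9.51 kb from the end of the span, in 17 lists as deposited and 16 at equal length.

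The H3K27 demethylase genes are Kdm6a and Kdm6b. Kdm6a, on the X chromosome, had no gene-end peak in the 18 first-set lists, and its listed start lay inside the span. The region over that start, chrX:18162041-18163274, was in all 18 lists as deposited and in 16 at equal length, 2 FS2 libraries lacking it. In the Rd2 set it was in 4 of 4 Rd2_EpiLC and 2 of 2 Rd2_AFX lists. Kdm6b had a gene-end peak next to Tmem88 in 12 lists as deposited, none of them ES, and 6 inner regions. The number of peaks in and around Kdm6b at equal length was 0.333 ± 0.577 in ES (SD, n = 3), 0.667 ± 0.816 in FS (n = 6) and 2.00 ± 0.632 in EpiSC_AFX (n = 6). ES minus EpiSC_AFX was -1.67 (exact permutation test, unadjusted p = 0.0238, adjusted p = 0.384) and FS minus EpiSC_AFX was -1.33 (exact permutation test, unadjusted p = 0.0346, adjusted p = 1). With the lists shortened by fold enrichment the second difference turned to 0.167.

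Of the 7 other ARID genes, which encode proteins with an AT-rich interaction domain, none was open in all 18 libraries at equal length, 5 were open in some and 2, Arid3a and Arid5b, in none. Arid3c was the 1 gene of the 55 separated between ES and FS at equal length, which means a gene-end peak in each library of one type and in no library of the other. Its ranks were 0 in all 3 ES libraries and 15.6, 42.2 and 89.7 (lowest, median, highest) in FS. In EpiSC_AFX they were 0, 34.5 and 59.8. ES minus FS was -45.3 (exact permutation test, unadjusted p = 0.0238, adjusted p = 0.379). The peak behind this, chr4:41723015-41723360, lay at the end of Arid3c next to Dctn3, 7782 bp from the listed start of Arid3c. The region over that start was in 7 lists as deposited, 1 at equal length and no ES list. With a window of 500 bp in place of 1 kb, no member was separated between ES and FS.
Arid4b had ranks of 73.9, 90.3 and 86.9 in ES and 57.3, 68.9 and 80.3 (lowest, median, highest) in EpiSC_AFX. In FS they were 0, 29.5 and 82.1, with 51.7 to 82.1 in FS1 and 0, 0 and 7.33 in FS2. ES minus FS was 48.2 (exact permutation test, unadjusted p = 0.0476, adjusted p = 0.529), and the ranges overlapped. With peaks kept at a −log10 q of at least 5 in place of equal length it was -35.5. Arid5b, a partner of the demethylase Phf2, had no gene-end peak in any list. The region 1604 bp from its listed start, chr10:68276308-68277122, had a peak in each of the 15 lists other than ES and in none of ES as deposited, and in 12 at equal length (3 each in FS1, EpiSC_AF, EpiSC_AFX1 and EpiSC_AFX2).

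Few of the genes were separated between cell types. At equal length, 0 of the 55 genes had a gene-end peak in every ES and no FS library (0.370% of all genes) and 1, Arid3c, the reverse (1.82%, against 0.882%). Between ES and EpiSC_AFX there were 0 in either direction (0.434% of all genes open only in ES and 1.34% only in EpiSC_AFX). Between FS and EpiSC_AFX there were 0 as well (0.00457% and 0.00914%). As deposited, Arid3c and Kdm1a had a gene-end peak in every FS and no ES list (3.64%, against 3.41% of all genes). Arid3c, Kdm1a, Kdm5a, Chd4 and Smarce1 had one in every EpiSC_AFX and no ES list (9.09%, against 9.89%). No member showed the opposite (0.0640% of all genes for either comparison), and none was separated between FS and EpiSC_AFX (0.0137% and 0.0320%).

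The per-gene exact permutation tests, adjusted over all genes by the Benjamini-Hochberg method, called 0% of the genes tested in any comparison, either for rank (9929, 9525 and 9846 genes) or for peak number (13265, 12754 and 12896). The smallest p these designs allow is 0.0119 for ES against FS or EpiSC_AFX and 0.00216 for FS against EpiSC_AFX. An adjusted p under 0.05 for rank would have needed 2365, 2268 and 427 genes at that smallest p, and 448, 806 and 44 reached it. At an unadjusted p under 0.05, 2 of 33 members tested ranked higher in ES than FS (3.46% of all genes) and 1 lower (5.49%). For ES against EpiSC_AFX 1 of 30 ranked higher in ES (3.95%) and 3 lower (11.7%). For FS against EpiSC_AFX 0 of 33 ranked higher in FS (1.74%) and 2 lower (4.80%). For peak number, 1 member each had more peaks in FS than ES (4.98% of all genes), in EpiSC_AFX than ES (6.62%) and in EpiSC_AFX than FS (0.551%). Since the same ES libraries stand in 2 of the comparisons, these counts are not independent.

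Inside and beside the 55 genes, away from their ends, 116 inner and 22 flank regions were found when the 18 lists as deposited were merged, in 42 of the genes. These genes are long, with a median span of 62.4 kb against 17.2 kb for all genes. An inner peak was present at equal length in at least 1 library for 26 of the 55 genes (47.3%, against 21.8% of all genes) and in all 18 for 3, Chd2, Chd6 and Chd8 (5.45%, against 1.19%). The number of inner peaks in a library at equal length was 15.7 ± 3.51 in ES (SD, n = 3), 14.3 ± 3.56 in FS (n = 6), 16.7 ± 2.89 in EpiSC_AF (n = 3) and 17.3 ± 2.66 in EpiSC_AFX (n = 6), and the ranges of the 4 types overlapped. Arid5b and Chd9 had the most inner regions, 11 each, followed by Arid1b with 9, Kdm2b with 8 and Chd5 with 7. Chd9 had the most inner peaks over the 18 deposited lists, 69, followed by Kdm6b with 59, Arid1b with 50, and Chd5 and Kdm2b with 46 each.

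Of the 130 regions away from every gene end, 7 (5.38%) were in all 18 lists as deposited, against 1.62% of all such regions in or near protein-coding genes. They were the flank region of Kdm5b, the start of Kdm6a and regions inside Chd2, Chd6, Chd8, Chd9 and Arid1b. That of Chd6, chr2:160957425-160958116, lay 150970 bp from the listed start. That of Chd8, chr14:52244294-52244950, lay 12810 bp from it, and that of Chd2, chr7:73537673-73538146, 111 kb from the lower end of the span. These 3 sites were also in all 18 libraries at equal length. In Chd9 the region was chr8:90908023-90909096 (16 lists at equal length), and in Arid1b it was chr17:5189618-5190405 (15 at equal length).
Regions found in no ES list and in all 15 others numbered 2 (1.54%, against 1.08% of all such regions): that of Arid5b above and chr8:90876440-90877592 in Chd9. The Chd9 region was in 2 lists at equal length.
Smarcd1, a BAF subunit gene, held an inner region with another distribution. It was named for that pattern, and the share of all regions with it was not taken. The site, chr15:99707929-99708325, had a peak in 3 of 3 ES, FS1, FS2 and EpiSC_AF lists as deposited and in 1 of 3 lists of either AFX group. At equal length it was in 3 ES, 2 FS1, 3 FS2, 0 EpiSC_AF, 1 EpiSC_AFX1 and 0 EpiSC_AFX2 libraries, and it was in none of the 8 Rd2 lists. Its gene-end region, chr15:99701960-99702811, shared with Asic1, was in 1 of 3 ES lists and all 15 others as deposited.

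**Figure D4:**
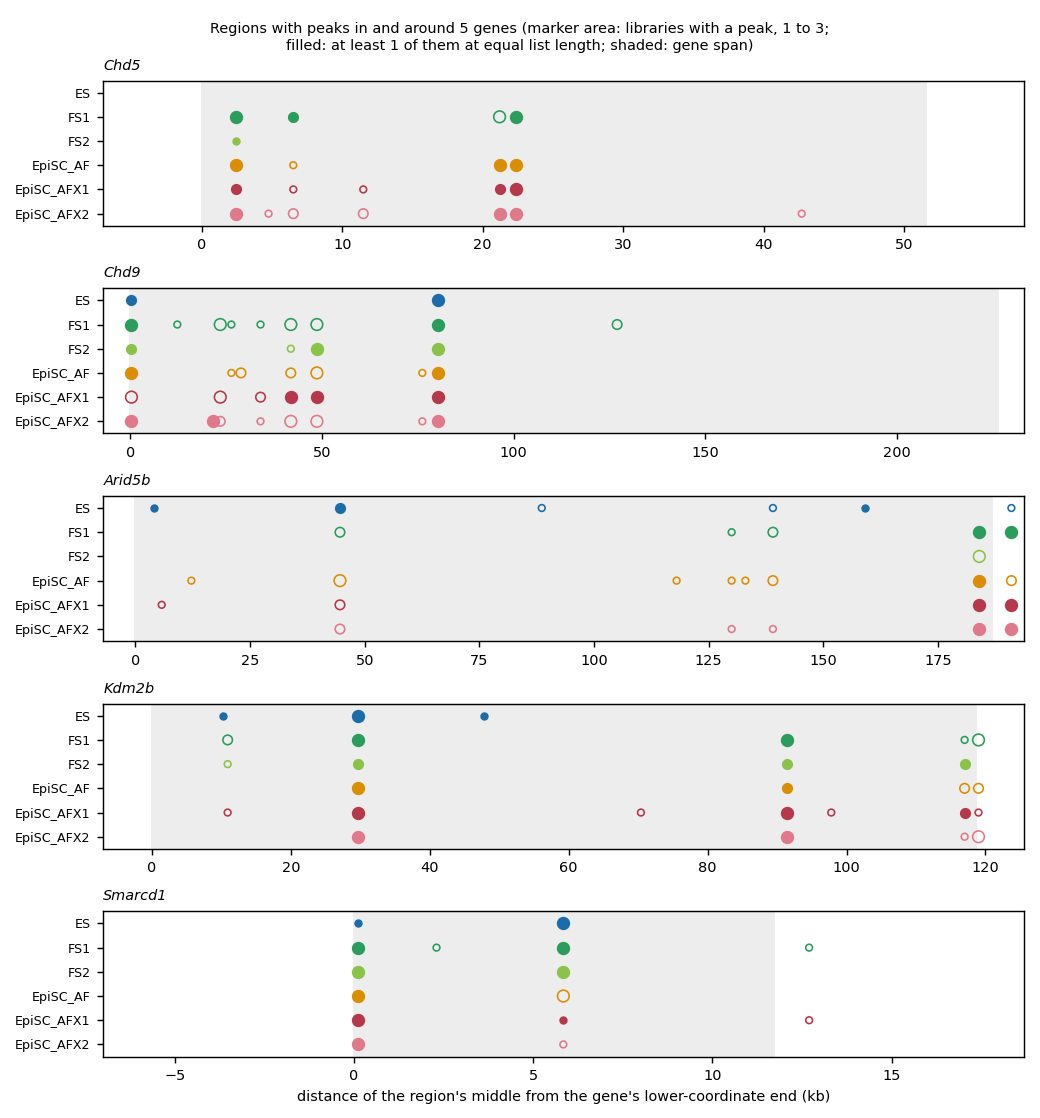
Regions with peaks in and around Chd5, Chd9, Arid5b, Kdm2b and Smarcd1, by group (rows) and distance of the region's middle from the lower-coordinate end of the gene in kb (horizontal axis, gene span shaded). Marker area gives the number of libraries with a peak in the lists as deposited (1 to 3) and filled markers at least 1 such library at equal length; the ES row of Chd5 is empty, and the inner region of Smarcd1 is largest in the first 4 rows.

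Listed starts of these genes were rich in CpG. The median number in a 300-base window was 24 for the 53 windows of the 40 genes and 13 for 21263 windows of all protein-coding genes. By number of first-set lists as deposited, 9 of the 53 windows (17%) had a peak in all 18, against 8.94% of all windows, and 11 (20.8%) had none, against 40.2%. The median CpG number was 24 in the windows open in all 18 lists, 27 in those open in 1 to 17 and 15 in those with none. Over all genes these medians were 25, 21 and 3. CpG-rich windows without a peak in any first-set list included those of Chd5 (32) and Smarcd3 (40), and the Kdm7a window with 65, the highest, had a peak in 16.
Motifs were searched as exact letters on both strands, and none of the 5 strings contains another. The NRF1 letters GCGCATGC were in 4 of 53 windows (7.55%, against 3.52% of all windows), those of Smarca4, Smarca5, Smarcb1 and Smarcc1. The ETS letters CCGGAAG were in 8 (15.1%, against 11.6%), YY1 letters AAGATGGC in 3 (5.66%, against 3.05%) and NFY letters CCAAT in 20 (37.7%, against 38.2%). The TATA letters TATAAA were in 3 windows (5.66%, against 12.6%), those of Arid5b, Kdm5d and Smarcd2, and these 3 windows had a peak in none of the 18 lists. In all genes the TATA letters were in 3% of windows open in all 18 lists and in 22.8% of windows with none. Such a match is a string of letters and not a bound site.

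**Figure D5:**
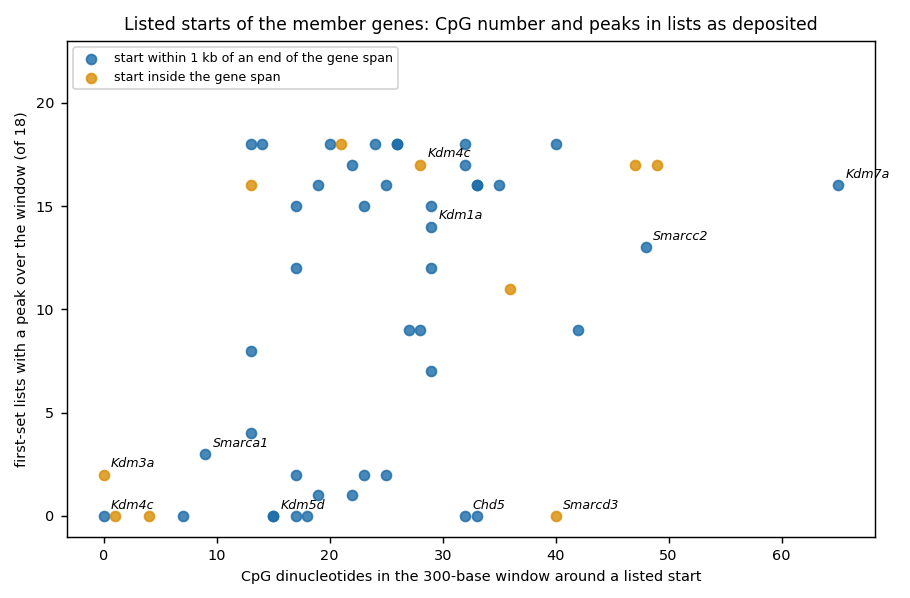
Number of the 18 first-set lists as deposited with a peak over the window (vertical axis) against the number of CpG dinucleotides in the 300-base window (horizontal axis) for 53 listed starts of 40 genes. Blue points are starts within 1 kb of an end of the gene span and orange points starts inside it; Chd5 and Smarcd3 stand at 0 lists with 32 to 40 CpG.

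Partner subunits of these complexes and the opposing methyltransferases, listed by name, were read in the same way. Of 59 partner genes, 9 (15.3%) had a gene-end peak in all 18 libraries at equal length and 16 (27.1%) as deposited, read against the same 5.87% and 10.6% of all genes. By complex as deposited these were 4 of 18 BAF and PBAF genes, 5 of 11 NuRD genes, 2 of 9 INO80 partner genes, 2 of 6 ISWI partner genes and 3 of 15 methyltransferase genes. At equal length, Actl6b, a BAF subunit gene, was open in every FS and every EpiSC_AFX library and no ES library. Dpf1, another, was open in every EpiSC_AFX and no ES library. That is 1 of 59 for FS against ES, beside 0.882% of all genes, and 2 of 59 for EpiSC_AFX against ES, beside 1.34%. No partner gene showed the opposite. As deposited, Mta1, Kmt2a and Setdb1 joined them in EpiSC_AFX against ES, and these 5 of 59 were a smaller share than the 9.89% of all genes.

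In the Rd2 set, read as deposited, 19 of the 55 genes (34.5%) had a gene-end peak in all 4 Rd2_EpiLC lists, against 21% of all genes, and 28 (50.9%) in both Rd2_AFX lists, against 27.2%. The Rd2_ES lists held 471 and 2576 peaks and had a gene-end peak at 2 and 12 of the genes. Smarca5 was in both, at percentiles 44.6 and 43.8 of those lists. It stood at 86.9 to 98.1 in the Rd2_EpiLC lists and at 58.3 and 42.6 in the Rd2_AFX lists. These percentiles come from lists of different lengths and are given side by side without comparison. Arid3c, separated between ES and FS in the first set, had a gene-end peak in neither Rd2_ES list, 1 of 4 Rd2_EpiLC lists and 2 of 2 Rd2_AFX lists.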

How the data were processed

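Per the submitters' processing notes, Trim Galore, Bowtie, Picard and MACS2 were used with the genome build mm10, without versions or roles. The deposited data were 26 peak lists in the broadPeak layout, 1 for each library, so peaks were called per library. The deposited score, the fold enrichment (the authors' ratio over background) and the −log10 p and −log10 q of each peak are the authors' values and were used only within a list. No read counts were used, so depth is unknown and no counting interval was given. The shortest peak was 150 bp in the first set and 110 bp in the Rd2 set, and what set it is not given in the sources used here; no test was made between the sets.

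The build mm10 is GRCm38, so peaks were placed on the spans of a RefSeq table of GRCm38.p6 genes, with an overlap of at least 1 bp. Tests were exact, two-sided permutations of library labels for each gene (84 or 924 assignments), adjusted over all genes tested. The functions were tested on simulated data. Python, numpy 2.4.6, pandas 2.3.3 and matplotlib were used. The members, lists, tests and alternatives were chosen with earlier results of these data known. Named genes were those without a gene-end peak, those separated between cell types, the 5 highest and 5 lowest in rank, the 5 richest in inner regions or inner peaks, those at an unadjusted p under 0.05, and the main catalytic genes. Genes at rank 0 in all groups tied for lowest and are named as such, and other genes are named in counts or for comparison. Alternatives were the lists as deposited, equal length by fold enrichment, a −log10 q of at least 5, other windows and flanks, a replicate block and leaving out each library. Identical peak coordinates were checked between replicates and made up at most 0.0746% of a list.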

Additional observations from a re-analysis of the deposited data

Results flagged for a closer look

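In 38 groups of 4 or 6 libraries, the highest or lowest library was compared with the rest of its group by the gap to its neighbour over the whole range. It stood far from the others in 4 groups, and chance flags about 1 in 20 such groups. That rate holds for independent, normally distributed values, which these need not be. All 4 were gene-end ranks at equal list length. Smarca5 was at 9.46 in FS1 replicate 2, against 57.0 to 67.0 in the other FS libraries. Kdm1b was at 1.60 in FS2 replicate 1, against 68.9 to 98.1. Chd8 was at 62.5 in FS1 replicate 3, against 91.4 to 96.0. Chd6 was at 88.0 in EpiSC_AFX2 replicate 3, against 94.5 to 97.7 in the other EpiSC_AFX libraries.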

How the results depend on the processing

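The count of members with a gene-end peak in all 18 libraries (9) was 0 with peaks kept at a −log10 q of at least 5. Shares of all genes for such counts were taken only at equal length and as deposited, with the 1 kb window. Members separated between ES and FS (1) numbered 2 as deposited, 0 at that −log10 q and 0 with a 500 bp window. Those separated between ES and EpiSC_AFX (0) numbered 5 as deposited and 6 at that −log10 q, and 0 to 1 on leaving out 1 library (1 without ES replicate 3). Inner peaks per library went from 15.7 to 19.3 as deposited and 2.67 at that −log10 q in ES, from 14.3 to 33.8 and 10 in FS, from 16.7 to 38.7 as deposited in EpiSC_AF, and from 17.3 to 43 as deposited and 14.5 by fold enrichment in EpiSC_AFX. Rank calls over all genes between ES and EpiSC_AFX (0) numbered 4156 as deposited and 2289 at that −log10 q, where list length differs between the groups. Among them were Smarca5 (12.7, as deposited), Smarcd2 (-29.7 and -84.3), Kdm1b (-26.0 and -95.1) and Kdm4b (-13.3 and -78.4). Arid4b, ES minus FS, turned to -35.5 at that −log10 q, and the Kdm6b peak number, FS minus EpiSC_AFX, to 0.167 by fold enrichment. Members with a gene-end peak in every Rd2 library of a group, with lists cut to the shortest of the set, went from 1 to 0 in Rd2_ES, 19 to 0 in Rd2_EpiLC and 28 to 2 in Rd2_AFX, and leaving out 1 Rd2_ES library gave 2 to 12. The causes were not tested. The other alternatives left 226 values of the main counts and means close to the main value. Close meant equal or within a set factor for a count, and a shift smaller than the SD for a mean. For named genes, 198 values did not reverse and gave no call. Library numbers did not pair the samples (mean correlation of same-numbered libraries 0.002 over 45 pairs), and with a replicate block 0 genes were called in each comparison. Read depth is unknown, so how far it limits a missing peak could not be measured.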
